A study of Homo sapiens with 8 samples.

Results

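The genes described here encode the cyclins, kinases and phosphatase that carry a cell out of G1: the D cyclins CCND1, CCND2 and CCND3, their kinases CDK4 and CDK6, the E cyclins CCNE1 and CCNE2, their kinase CDK2, and CDC25A. They were taken by gene symbol, and all 9 were found among the 55737 genes of the deposited table. Of these, 8 averaged 10 or more normalised counts across the 8 libraries and were tested, among 19393 genes in all, and CCND2 was below that level. RNA was sequenced from LNCaP, a human prostate cancer cell line, after 4 hours in 4 groups of 2 libraries. One group received 40 µM OSMI-2 plus 0.5 µM AT7519 (the combination), one 0.5 µM AT7519 alone, one 40 µM OSMI-2 alone, and one the control treatment, whose vehicle is not named. OSMI-2 blocks OGT, which attaches the sugar N-acetylglucosamine to proteins of the nucleus and cytosol. AT7519 is a multi-target blocker of cyclin-dependent kinases (CDKs) whose targets include CDK9, CDK2 and CDK4, so kinases described here are also targets of the agent. These doses follow the design text; a treatment note in the labels has mM in place of µM. All groups share 1 cell line, and nothing says that replicates were separate cultures, so each p-value rests on library-to-library spread alone, and that spread may be technical.

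D cyclins bind CDK4 and CDK6, and these complexes begin to phosphorylate the retinoblastoma protein RB, which then releases E2F transcription factors. E2F proteins switch on the genes of the E cyclins and of CDC25A, cyclin E activates CDK2, and CDC25A removes the inhibitory phosphates from CDK2, so that the cell is committed to S phase. The D cyclins connect growth factor signals to RB. CDK9, in contrast, acts on RNA polymerase II, and its inhibition lowers transcripts that are short-lived.

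The libraries held 60152710 to 154367238 reads in genes, and all 9 luminal prostate markers fixed for LNCaP, among them KLK3 and KRT8, were detected, with a summed level of 451767 to 520253 normalised counts in the combination, 447400 to 469126 with AT7519, 420815 to 460040 with OSMI-2 and 417740 to 434870 in control. Of markers of other cells, CDH5 was at 0 in every library and KRT5, TP63, DCN, PDGFRA, PTPRC and CD3E were below the tested level, whereas KRT14, COL1A1 and VWF passed it. The summed fibroblast markers, nearly all COL1A1, had 3102 to 3735 normalised counts in the combination, 2512 to 3095 with AT7519, 1815 to 2556 with OSMI-2 and 1931 to 2037 in control. The basal markers summed to 75.9 to 106 in the combination, 55.8 to 61.0 with AT7519, 58.9 to 67.9 with OSMI-2 and 41.8 to 53.1 in control, and the endothelial ones to 1289 to 1506, 1132 to 1409, 1237 to 1394 and 1375 to 1484 in the same order. The leukocyte markers summed to at most 3.53, and the part of other cells in the results was not tested. Levels are normalised counts, the reads of a gene divided by 1 size factor per library, and are relative to the scale chosen. The 13 mitochondrially encoded mRNAs, which another polymerase makes, took 7.33% and 7.73% of all counts in the combination, 6.57% and 7.04% with AT7519, 4.99% and 5.53% with OSMI-2 and 4.45% and 4.69% in control. On the deposited scale the median tested gene changed by -0.004 (log2) with AT7519 and by 0.02 with the combination, both against control. Scaled to equal mitochondrial mRNAs it changed by -0.91 and -0.95, and scaled to equal totals by -0.34 and -0.23. Adjusted p-values and calls at equal mitochondrial mRNAs are not comparable with those of the deposited scale, as described with the processing. With bulk RNA, fewer transcripts in every cell and fewer cells that hold the transcript cannot be told apart.

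Divided by the exon length of each gene in GENCODE release 29, CDK4 had the highest level of the 9 genes in every group. It had 7681 ± 849.5 normalised counts per kilobase in the combination, 9268 ± 395 with AT7519, 4712 ± 619 with OSMI-2 and 5553 ± 64.3 in control (SD, n = 2 in each group). On the same per-length scale CCND1 had 2877 ± 421 in the combination, 2394 ± 111 with AT7519, 4067 ± 13.6 with OSMI-2 and 4840.2 ± 441 in control. CCND1 was second to CDK4 in the combination, with OSMI-2 and in control, and with AT7519 alone its level lay within the spread of that of CDK2, at 2422 ± 41.1 per kilobase. The lowest level per length of the tested genes was that of CDK6, at 35.8 ± 9.12 in the combination, 37.2 ± 5.54 with AT7519, 66.5 ± 3.41 with OSMI-2 and 60.2 ± 12.4 in control. CCND2 was not detected above the floor of 3 reads per library: it had 0 reads in all 4 libraries with AT7519, 1 and 2 reads with OSMI-2, and 2 and 0 reads in control.

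**Figure D1:**
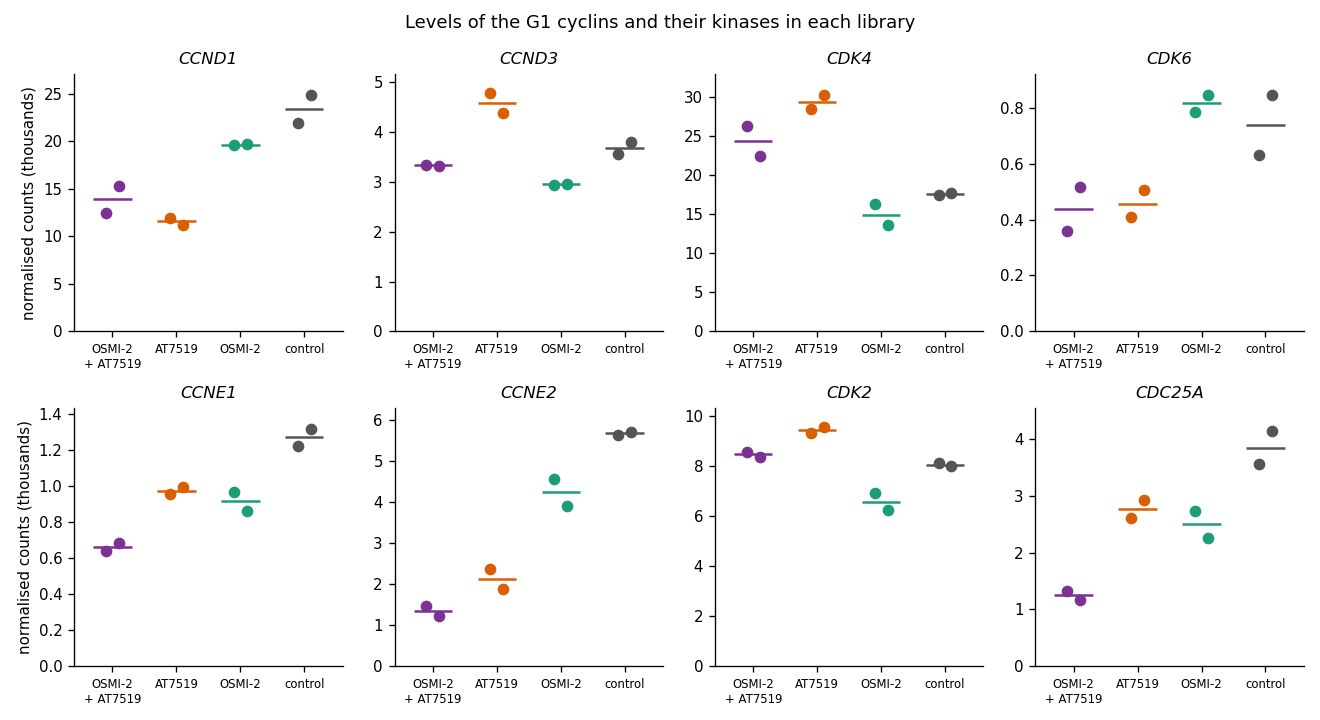
Normalised counts (linear axis from 0, divided as its label says) of the 8 tested genes in each library; points are libraries and bars are group means, with the combination at the left and control at the right. CCNE1, CCNE2 and CDC25A are lowest in the combination, whereas CDK4 and CDK2 are highest with AT7519 alone.

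The D cyclins moved apart with AT7519, as cyclin D1 mRNA fell on every scale tried and cyclin D3 mRNA rose on the deposited scale but was negative at equal totals and at equal mitochondrial mRNAs. CCND1 had 12457 and 15332 normalised counts in the combination, 11942 and 11187 with AT7519, 19598 and 19691 with OSMI-2, and 21871 and 24885 in control. The 4 groups were apart from each other, in the order AT7519, combination, OSMI-2 and control from low to high. CCND1 fell 2.02-fold with AT7519 against control (log2 change -1.01, SE 0.097, adjusted p = 1.307e-06, limma) and 1.69-fold in the combination against control (log2 change -0.76, SE 0.097, adjusted p = 1.487e-05). In the combination it lay above AT7519 alone, by a log2 change of 0.26 (SE 0.097) that did not pass (adjusted p = 0.0788) but did at equal totals (adjusted p = 0.0213), at equal upper quartiles (adjusted p = 0.0201), after quantile normalisation (adjusted p = 0.0205) and in edgeR (adjusted p = 0.0413), though not in DESeq2 (adjusted p = 0.075). The change depended on which combination library was used. It was 0.41 without combination replicate 1 (adjusted p = 0.0172) and 0.11 without combination replicate 2 (adjusted p = 0.555). The change of CCND1 with OSMI-2 against control, -0.25 (SE 0.097), did not pass (adjusted p = 0.19) and passed at equal mitochondrial mRNAs, with -0.37 (adjusted p = 0.0457).

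CCND3, the other D cyclin expressed here, had 3345 and 3323 normalised counts in the combination, 4791 and 4392 with AT7519, 2945 and 2966 with OSMI-2, and 3553 and 3806 in control. The groups did not overlap, and the order from low to high was OSMI-2, combination, control and AT7519, which differs from that of CCND1. On the deposited scale CCND3 rose 1.25-fold with AT7519 against control (log2 change 0.32, SE 0.09, adjusted p = 0.00787), whereas at equal mitochondrial mRNAs it fell by 0.60 on the log2 scale (adjusted p = 5.212e-05) and was at -0.02 at equal totals (adjusted p = 0.833). The rise missed the threshold with control replicate 1 left out (adjusted p = 0.0724), and so it did with AT7519 replicate 1 left out (adjusted p = 0.056). Against AT7519 alone, CCND3 fell 1.38-fold in the combination (log2 change -0.46, SE 0.09, adjusted p = 0.00311). In the combination against control its change was -0.14 (SE 0.09, adjusted p = 0.202), and it passed at equal totals (log2 change -0.40, adjusted p = 0.00133) and at equal mitochondrial mRNAs (-1.12, adjusted p = 1.363e-14).

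Among the kinases of the D cyclins, CDK4 rose with AT7519 on the deposited scale, but not at equal mitochondrial mRNAs, and CDK6 fell. CDK4 had 26235 and 22429 normalised counts in the combination, 28475 and 30246 with AT7519, 16315 and 13543 with OSMI-2, and 17448 and 17736 in control. All 4 libraries with AT7519 were above all 4 without it. It rose 1.67-fold with AT7519 against control (log2 change 0.74, SE 0.096, adjusted p = 1.878e-05) and 1.38-fold in the combination against control (log2 change 0.46, SE 0.096, adjusted p = 0.000904). The rise with AT7519 held at equal totals (log2 change 0.40, adjusted p = 0.0038) but was a change of -0.18 when scaled to mitochondrial mRNAs (adjusted p = 0.176), on which scale CDK4 fell in the combination (log2 change -0.51, adjusted p = 5.492e-05). Nor did the rise in the combination pass at equal totals (adjusted p = 0.0988) or after quantile normalisation (adjusted p = 0.0822). Against AT7519 alone, CDK4 changed by -0.27 in the combination (adjusted p = 0.0587), which passed in DESeq2 (adjusted p = 0.0326), at equal mitochondrial mRNAs (adjusted p = 0.0403) and without either OSMI-2 library (adjusted p = 0.0452 and 0.0445). The combination libraries differed here too. The change was -0.39 without combination replicate 1 (adjusted p = 0.0316) and -0.16 without combination replicate 2 (adjusted p = 0.395). TSPAN31 and MARCH9 overlap CDK4, and LTO1 overlaps CCND1, on the other strand, and the counting strand is unknown.

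CDK6, which shares its cyclins with CDK4, had 359.9 and 518 normalised counts in the combination, 408 and 504 with AT7519, 786 and 845 with OSMI-2, and 631 and 845 in control. The combination and AT7519 overlapped, as did OSMI-2 and control, and the libraries with AT7519 were all below those without it. It fell 1.61-fold with AT7519 (log2 change -0.69, SE 0.19, adjusted p = 0.00796) and 1.69-fold in the combination (log2 change -0.76, SE 0.19, adjusted p = 0.00414), both against control. These falls rested on single libraries: without control replicate 2 they did not pass (adjusted p = 0.12 with AT7519 and 0.0768 in the combination), nor did the fall with AT7519 without AT7519 replicate 1 (adjusted p = 0.0623) or that in the combination without combination replicate 1 (adjusted p = 0.0608). After quantile normalisation they also did not pass (adjusted p = 0.161 with AT7519 and 0.0519 in the combination), nor did the fall with AT7519 in limma without the variance trend (adjusted p = 0.0573). CDK6 had the fewest reads of the tested genes, 284 to 1073 in a library.

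The E cyclins fell with AT7519, and CCNE2 by more than CCNE1. CCNE2 had 1458 and 1220.0 normalised counts in the combination, 2359 and 1870.0 with AT7519, 4565 and 3904 with OSMI-2, and 5637 and 5694 in control. No groups overlapped, and the combination was the lowest. CCNE2 fell 2.7-fold with AT7519 (log2 change -1.43, SE 0.13, adjusted p = 6.355e-07) and 4.25-fold in the combination (log2 change -2.09, SE 0.13, adjusted p = 2.088e-08), both against control, which left 23.6% of the control level in the combination. It was also 1.57-fold lower in the combination than with AT7519 alone (log2 change -0.65, SE 0.13, adjusted p = 0.0029), a call that limma without the trend did not make (adjusted p = 0.0713). The span of CCNE2 overlaps INTS8 and NDUFAF6 on the other strand.

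CCNE1, the other E cyclin, had 639.7 and 682 normalised counts in the combination, 952 and 992 with AT7519, 968 and 861 with OSMI-2, and 1221 and 1314 in control. The combination was below and control above all other libraries, and the groups given 1 agent overlapped. CCNE1 fell 1.92-fold in the combination against control (log2 change -0.94, SE 0.12, adjusted p = 1.804e-05) and 1.47-fold against AT7519 alone (log2 change -0.56, SE 0.12, adjusted p = 0.00665). With AT7519 against control it fell 1.3-fold (log2 change -0.38, SE 0.12, adjusted p = 0.0176), a call lost with control replicate 2 left out (adjusted p = 0.12), without AT7519 replicate 1 (adjusted p = 0.0632) or after quantile normalisation (adjusted p = 0.482). With OSMI-2 its change of -0.47 (SE 0.12) just missed the threshold (adjusted p = 0.0545), and passed in edgeR (adjusted p = 0.0493), in DESeq2 (adjusted p = 0.00569), at equal mitochondrial mRNAs (adjusted p = 0.0174) and without either AT7519 library (adjusted p = 0.0415 and 0.0413).

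CDK2, the kinase of the E cyclins, rose with AT7519 on the deposited scale and was negative at equal totals and at equal mitochondrial mRNAs. It had 8553 and 8367 normalised counts in the combination, 9320.1 and 9546 with AT7519, 6918 and 6226 with OSMI-2, and 8104 and 7989 in control. The groups did not overlap, and AT7519 was the highest. CDK2 rose 1.17-fold with AT7519 against control (log2 change 0.23, SE 0.08, adjusted p = 0.0263) and its change in the combination against control was 0.07 (SE 0.08, adjusted p = 0.473), which passed at equal upper quartiles (0.21, adjusted p = 0.0325) and was -0.91 at equal mitochondrial mRNAs (adjusted p = 1.615e-11). The rise was lost without either control library (adjusted p = 0.078 and 0.105), without AT7519 replicate 2 (adjusted p = 0.0877), after quantile normalisation (adjusted p = 0.378) and in limma without the trend (adjusted p = 0.075). The values on those scales were -0.11 at equal totals (adjusted p = 0.255) and -0.69 at equal mitochondrial mRNAs (adjusted p = 4.097e-07). PMEL lies across the span of CDK2 on the other strand.

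CDC25A, the phosphatase that frees CDK2 of its inhibitory phosphates, was lower with each agent and lowest with both. It had 1320.5 and 1173 normalised counts in the combination, 2605 and 2931 with AT7519, 2739 and 2269 with OSMI-2, and 3563 and 4139 in control. The groups given 1 agent overlapped, all their libraries were below control, and both combination libraries were below all others. CDC25A fell 3.08-fold in the combination against control (log2 change -1.63, SE 0.12, adjusted p = 1.105e-07) and 1.39-fold with AT7519 (log2 change -0.48, SE 0.12, adjusted p = 0.00429), and the fall with AT7519 was lost with control replicate 2 left out (adjusted p = 0.0661). It fell 2.22-fold in the combination against AT7519 alone (log2 change -1.15, SE 0.12, adjusted p = 8.001e-05), and only 1.62% of tested genes had a lower change there. With OSMI-2 against control it fell 1.54-fold (log2 change -0.62, SE 0.12, adjusted p = 0.0179), a call that rested on single libraries, as adjusted p was 0.326 with control replicate 2 left out and 0.253 with OSMI-2 replicate 2 left out. Nor did it pass with no filter (adjusted p = 0.056) or in limma without the trend (adjusted p = 0.264).

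**Figure D2:**
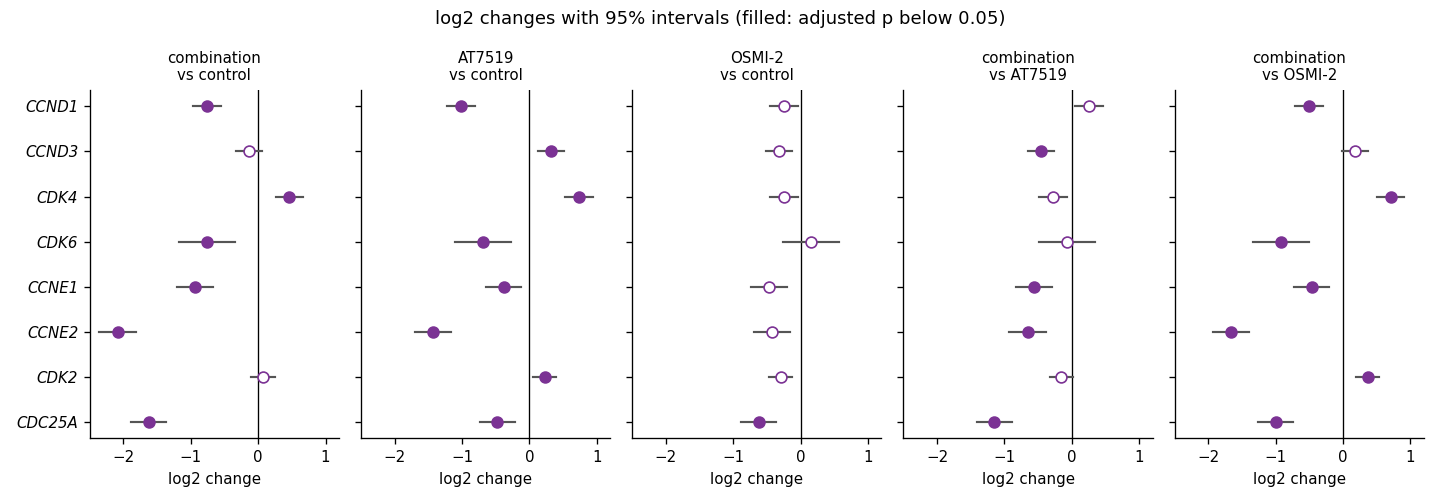
log2 changes (x axis) of the 8 tested genes (rows) in 5 comparisons (panels), with 95% intervals from limma; filled points have an adjusted p below 0.05 and open points do not. In the combination against AT7519 alone, CCND3, CCNE1, CCNE2 and CDC25A are filled, all left of 0, and CCND1 is open and right of 0.

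Counted over the 8 tested genes, AT7519 against control, the effect of the CDK inhibitor by itself, gave 8 of 8 calls in limma, 3 higher and 5 lower, where it called 53.2% of all tested genes, 26% higher and 27.2% lower. Both AT7519 libraries were above both control libraries for 3 genes and below for 5, which held for 37.7% and 38.4% of all tested genes. The count was 4 without control replicate 2, 5 without AT7519 replicate 1 and 5 after quantile normalisation. Against control the combination changed 6 of 8, 1 higher and 5 lower, where 53.9% of all genes were called, 26.3% higher and 27.6% lower. Its libraries were above control for 2 genes and below for 6, as for 39% and 38% of all tested genes. The comparison of OSMI-2 with control, which asks what blocking OGT alone did, called 1 of 8, CDC25A, where 3.02% of all genes were called, 0.645% higher and 2.38% lower. Both OSMI-2 libraries were nevertheless below both control libraries for 7 of the 8 genes, all but CDK6, a separation that 30.1% of all tested genes showed, and 0 of the 8 were above (23.5% of all). The count with OSMI-2 was 0 without control replicate 2 or without OSMI-2 replicate 2, 2 in edgeR, 5 in DESeq2 and 7, all lower, when scaled to mitochondrial mRNAs. Over all tested genes, edgeR called 0.758% higher and 2.68% lower with OSMI-2, and DESeq2 2.04% and 5.68%. The mitochondrial scale gave 0.505% and 6.05%. The 5 in DESeq2, all lower, were CCND3, CCNE1, CCNE2, CDK2 and CDC25A. In limma, CCND3, CCNE2, CDK2 and CDK4 changed by -0.32, -0.42, -0.29 and -0.24 with OSMI-2 (adjusted p = 0.073, 0.0844, 0.0638 and 0.193). CDK6 changed by 0.16 (adjusted p = 0.748). The median change of the 8 genes was -0.30 with OSMI-2, -0.43 with AT7519 and -0.76 in the combination, against -0.02, -0.004 and 0.02 for all tested genes.

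The combination against AT7519 alone asks what blocking OGT adds under CDK inhibition. It lowered 4 of the 8 genes (CCND3, CCNE1, CCNE2 and CDC25A), where limma called 19.7% of all tested genes, 7.21% higher and 12.5% lower, and 0 of the 8 rose (1, CCND1, in edgeR, and 0 in DESeq2, with 1 higher at an unadjusted p below 0.05, again CCND1). Its libraries were above AT7519 for 1 gene and below for 6, as for 25% and 30.6% of all tested genes. The median change of the 8 genes was -0.37, against -0.02 for all tested genes. The combination against OSMI-2 alone, which asks what CDK inhibition adds when OGT is blocked, called 7 of 8, 2 higher (CDK2 and CDK4) and 5 lower, where 54.8% of all genes were called, 27.5% higher and 27.3% lower. Its libraries were above OSMI-2 for 3 genes and below for 5, as for 40.1% and 37.3% of all tested genes. CCNE2 fell 3.16-fold and CDC25A 2-fold in it, and CDK4 rose 1.63-fold (adjusted p of at most 2.42e-05). CDK6 was 1.89-fold lower (adjusted p = 0.00104) and CCND3 did not pass (log2 change 0.17, SE 0.09, adjusted p = 0.117), but passed at equal upper quartiles (0.25, adjusted p = 0.0235) and after quantile normalisation (0.32, adjusted p = 0.00653). At equal mitochondrial mRNAs the changes of CDK2, CDK4 and CCND3 in this comparison were negative (-0.49, -0.15 and -0.68, adjusted p = 0.000399, 0.277 and 4.355e-06). At equal totals the rise of CDK2 did not pass (0.03, adjusted p = 0.768). CCNE1 fell 1.38-fold (log2 change -0.47, adjusted p = 0.00522), but missed the threshold after quantile normalisation (adjusted p = 0.364) and without OSMI-2 replicate 1 (adjusted p = 0.0684).

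The interaction asks whether the change with both agents differed from the sum of the single changes. For the 8 genes limma called 0, where it called 1.04% of all tested genes, 0.0619% higher and 0.975% lower. Unadjusted p was below 0.05 for 2 genes, and edgeR called 0 and DESeq2 called 1, CCND1 (adjusted p = 0.0273). CDC25A changed by -1.63 in the combination, against a sum of the single changes of -1.10, an interaction of -0.53 (95% interval -0.89 to -0.16, adjusted p = 0.22). CCND1 went the other way, with -0.76 in the combination against a sum of -1.26, an interaction of 0.51 (95% interval 0.21 to 0.80, adjusted p = 0.112). This value depended on single libraries. It was 0.66 without combination replicate 1, 0.36 without combination replicate 2 and 0.41 without control replicate 2. For CCNE1 the change in the combination and the sum were -0.94 and -0.85, an interaction of -0.08 (95% interval -0.46 to 0.29). For CCNE2 they were -2.09 and -1.86, an interaction of -0.23 (95% interval -0.61 to 0.15).

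**Figure D3:**
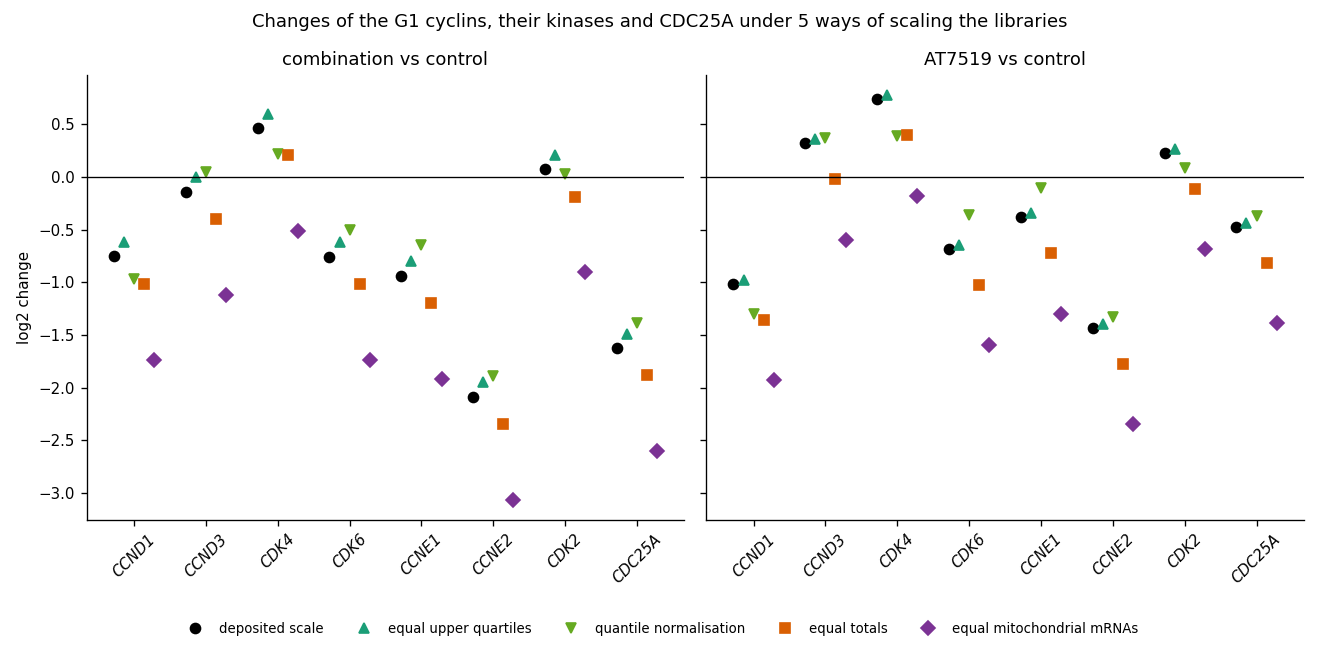
log2 changes (y axis) of the 8 tested genes against control under 5 ways of scaling the libraries (symbols), for the combination at the left and AT7519 at the right. CCND1, CDK6, CCNE1, CCNE2 and CDC25A are below 0 under all 5, whereas CCND3, CDK4 and CDK2 lie on either side of 0 depending on the scale.

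Ratios of 2 genes within a library do not depend on the factor by which a library is scaled, and are given as a description with no test. The log2 ratio of CCND1 over CCND3 counts was 1.90 and 2.21 in the combination, 1.32 and 1.35 with AT7519, 2.73 and 2.73 with OSMI-2, and 2.62 and 2.71 in control. The mean ratio was lower than in control by 1.33 log2 units with AT7519 and by 0.61 in the combination, so that the 4 libraries with AT7519 were all below the 4 without it. For CCND1 over CDK4 the ratio was -1.07 and -0.55 in the combination, -1.25 and -1.43 with AT7519, 0.26 and 0.54 with OSMI-2, and 0.33 and 0.49 in control. Here too the libraries with AT7519 were below the rest, and OSMI-2 overlapped control.

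CCNE2 was lower relative to its kinase and to the other E cyclin in the libraries with AT7519. The log2 ratio of CCNE2 over CDK2 was -2.55 and -2.78 in the combination, -1.98 and -2.35 with AT7519, -0.60 and -0.67 with OSMI-2, and -0.52 and -0.49 in control. CCNE1 over CCNE2 was -1.19 and -0.84 in the combination, -1.31 and -0.91 with AT7519, -2.24 and -2.18 with OSMI-2, and -2.21 and -2.12 in control. In the first ratio no groups overlapped, and in the second the combination overlapped AT7519 and OSMI-2 overlapped control.

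The ratio of CDC25A over CDK2 parted all 4 groups, with -2.70 and -2.83 in the combination, -1.84 and -1.70 with AT7519, -1.34 and -1.46 with OSMI-2, and -1.19 and -0.95 in control. The mean in the combination was 0.99 log2 units below that with AT7519. CDK6 over CDK4 was -6.19 and -5.44 in the combination, -6.12 and -5.91 with AT7519, -4.38 and -4.00 with OSMI-2, and -4.79 and -4.39 in control. Its libraries with AT7519 were below the rest, and the combination overlapped AT7519.

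**Figure D4:**
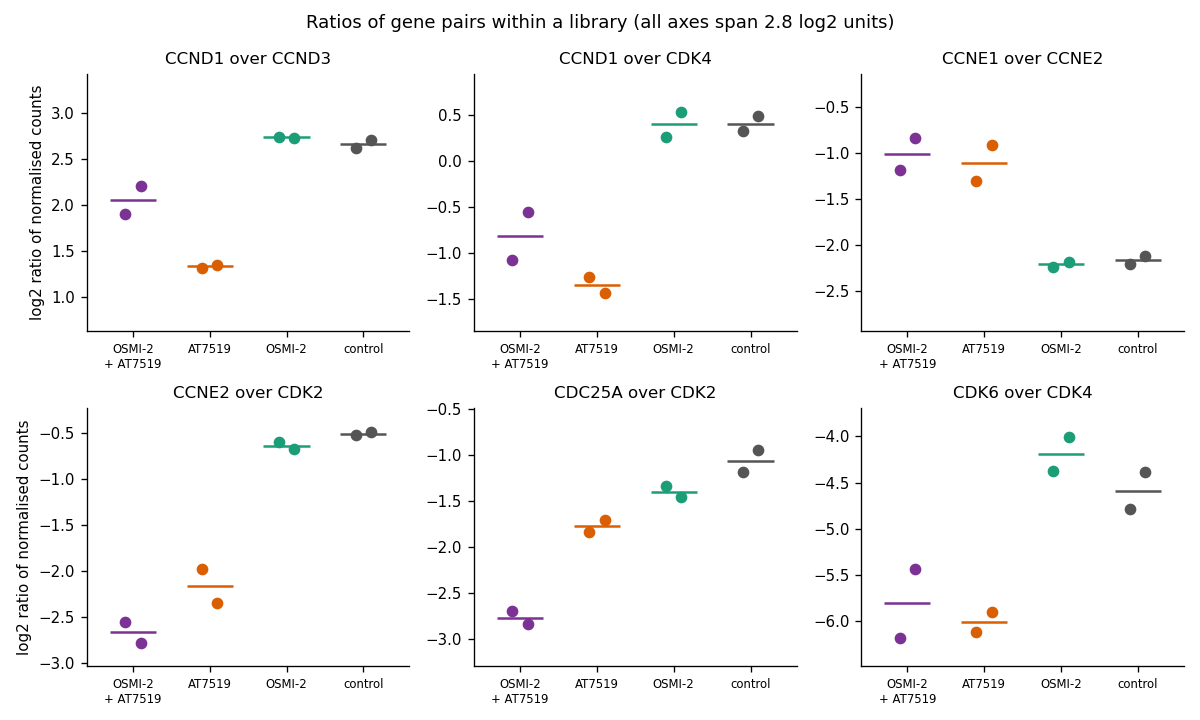
log2 ratios of the normalised counts of 2 genes within each library (y axis, every panel spanning the same number of log2 units, points as libraries, bars as group means), from the combination at the left to control at the right. CCND1 over CCND3, CCND1 over CDK4, CCNE2 over CDK2 and CDK6 over CDK4 are lower in the 4 libraries with AT7519, and CDC25A over CDK2 is lowest in the combination.

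The promoter table of RefSeq (GRCh38.p14) held 5 of the 9 genes, CCND3, CCNE1, CDK4, CDK6 and CDC25A. The 250 bases before the start are shown for CDC25A and CCNE1, which were lowest in the combination, and for CDK4, the gene with the largest rise, on the strand of each gene. Capitals mark matches on either strand to the E2F letters (TTCCCGC, or instead TTCGCGC, or instead TTGGCGC) and to the E-box CACGTG, the letters that MYC and related factors bind.
CDC25A, chr3:48188418-48188667, minus strand: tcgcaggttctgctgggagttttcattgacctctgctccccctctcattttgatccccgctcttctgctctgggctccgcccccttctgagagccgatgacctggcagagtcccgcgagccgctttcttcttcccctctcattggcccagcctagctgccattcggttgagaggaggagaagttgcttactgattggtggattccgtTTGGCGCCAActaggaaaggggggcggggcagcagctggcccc
CCNE1, chr19:29811741-29811990, plus strand: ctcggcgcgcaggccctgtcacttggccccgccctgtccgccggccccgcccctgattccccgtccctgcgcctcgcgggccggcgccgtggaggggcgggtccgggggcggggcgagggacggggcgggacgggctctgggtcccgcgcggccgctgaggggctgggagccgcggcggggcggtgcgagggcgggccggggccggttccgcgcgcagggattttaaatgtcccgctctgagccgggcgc
CDK4, chr12:57752311-57752560, minus strand: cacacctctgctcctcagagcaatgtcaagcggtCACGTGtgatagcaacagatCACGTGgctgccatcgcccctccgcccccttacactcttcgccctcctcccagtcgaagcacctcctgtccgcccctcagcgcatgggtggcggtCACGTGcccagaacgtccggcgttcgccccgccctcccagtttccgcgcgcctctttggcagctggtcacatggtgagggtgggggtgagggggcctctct
CDC25A held 2 overlapping E2F matches, 1 on each strand, between bases 43 and 34 before the start, and CDK4 held 3 E-boxes, which begin 216, 196 and 101 bases before the start. No other of the 5 promoters held either motif in this window, where 9.51% of the 27305 promoters of the table held an E2F match and 6.49% an E-box. The Sp1 letters GGGCGG were found in all 5, with 7 matches in CCNE1, and in 42.3% of all promoters. The AP-1 letters TGACTCA (4.16% of all), the CRE letters TGACGTC (3.29%), the TATA letters TATAAA (11.1%) and the CHR letters TTTGAA (13.6%) were found in 0 of the 5. A match describes the letters only, and the absence of one says nothing of the factor.

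Other genes of the G1/S pathway were listed by role, with the same tests. Their counts are to be read against all tested genes. With AT7519 against control, 26% of these were called higher and 27.2% lower. With OSMI-2 against control the shares were 0.645% and 2.38%, and in the combination against AT7519 they were 7.21% and 12.5%. The RB and E2F families hold the proteins that D and E cyclin kinases act on and release: with AT7519, 2 of 13 rose and 7 fell (median log2 change -0.36), and with OSMI-2 1 fell, E2F3 (log2 change -0.35, adjusted p = 0.0379). That last count depended on the processing: it was 6 in DESeq2, 1 in edgeR, 8 by unadjusted p, 6 at equal mitochondrial mRNAs, and 0 at equal totals, at equal upper quartiles and after quantile normalisation. E2F5 and E2F7 fell with AT7519 (log2 change -1.95 and -1.70, adjusted p = 6.492e-07 and 3.343e-06), under every alternative run. E2F4 rose (log2 change 0.87, adjusted p = 3.155e-05) and TFDP1, a partner of E2F proteins, rose (log2 change 0.21, adjusted p = 0.0377), but at equal mitochondrial mRNAs these were -0.05 and -0.70. Added to AT7519, OSMI-2 gave 1 rise, RBL2 (log2 change 0.31, adjusted p = 0.0318), and 3 falls, among them E2F3 (log2 change -0.71, adjusted p = 0.000145) and E2F6 (log2 change -0.70, adjusted p = 0.0016).

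CDK inhibitors, which bind and block these kinases, moved in both directions. Of all tested genes, 26% were called higher with AT7519 and 27.2% lower. With AT7519, 2 of 7 rose, CDKN2A (log2 change 0.62, adjusted p = 0.00544) and CDKN1A (log2 change 0.30, adjusted p = 0.009), and 2 fell, CDKN2B (log2 change -1.13, adjusted p = 0.00125) and CDKN1B (log2 change -0.44, adjusted p = 0.00642); both rises were negative at equal mitochondrial mRNAs and that of CDKN1A also at equal totals. CDKN1B and CDKN1A fell in the combination against AT7519 (log2 change -0.80 and -0.59, adjusted p = 0.000601 and 0.000532). With OSMI-2, limma called 0 of 7, as did edgeR and DESeq2, and 0 had an unadjusted p below 0.05.

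Of genes for the turnover of cyclins D and E, 4 of 11 rose with AT7519 and 4 fell, where 26% and 27.2% of all tested genes did. The counts became 2 and 7 at equal totals and 0 and 9 at equal mitochondrial mRNAs. FBXW7, the subunit that brings cyclin E to its ubiquitin ligase, rose (log2 change 0.89, adjusted p = 0.000101), as did SKP1 (log2 change 0.77, adjusted p = 1.009e-06), while FBXO31, which directs cyclin D1 to degradation, fell (log2 change -0.95, adjusted p = 1.269e-05) with CUL1 (log2 change -0.51, adjusted p = 0.000149). At equal mitochondrial mRNAs FBXW7 and SKP1 were at -0.03 and -0.14. Against AT7519 alone, 5 of 11 fell in the combination and 0 rose (edgeR 5 and 0, DESeq2 6 and 0, unadjusted 6 and 0). There 12.5% of all tested genes fell and 7.21% rose. The falls were led by AMBRA1, which directs D cyclins to degradation (log2 change -0.83, adjusted p = 0.000274), and FBXW7 (log2 change -0.78, adjusted p = 0.00173). With OSMI-2, 0 of 11 passed in limma or edgeR and 1 fell in DESeq2, with 4 lower at an unadjusted p below 0.05.

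Another list holds the CDK-activating kinase, the kinases that place the inhibitory phosphates on CDKs, phosphatases that remove them and the checkpoint kinase CHEK1. All tested genes gave shares of 26% higher and 27.2% lower with AT7519. In the combination against AT7519 they gave 7.21% and 12.5%. Of these regulators of CDK phosphorylation, 1 of 8 rose with AT7519, the cyclin CCNH (log2 change 0.61, adjusted p = 3.182e-05, but -0.31 at equal mitochondrial mRNAs), and 3 fell, among them its partner CDK7 (log2 change -0.84, adjusted p = 0.00018) and the phosphatase CDC25C (log2 change -0.32, adjusted p = 0.0354). Of the 8, 4 fell in the combination against AT7519, among them WEE1, the kinase that CDC25A opposes (log2 change -0.50, adjusted p = 0.00245), and CDK7 (log2 change -0.45, adjusted p = 0.0389). The 4 became 1 at equal totals, at equal upper quartiles and after quantile normalisation, 2 with no filter and 0 in limma without the trend. With OSMI-2 1 fell, CHEK1 (log2 change -0.39, adjusted p = 0.0418), and 0 did at equal totals, at equal upper quartiles, after quantile normalisation, with no filter or without the trend.

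The S and M phase cyclins and CDK1, which act after CDK2, had 6 of 7 members tested, all but CCNA1. Over all tested genes, 26% were called higher and 27.2% lower with AT7519, and 2.38% lower with OSMI-2. The combination against AT7519 called 12.5% of them lower. With AT7519, 3 of the 6 rose, among them CDK1 (log2 change 0.65, adjusted p = 3.02e-05) and CCNB2 (log2 change 0.35, adjusted p = 0.00297), both negative at equal mitochondrial mRNAs (-0.27 and -0.57), and 1 fell, CCNF (log2 change -1.34, adjusted p = 8.083e-07). With OSMI-2, CDK1 and CCNB1 fell (log2 change -0.54 and -0.41, adjusted p = 0.00999 and 0.0176), and in the combination against AT7519 4 of 6 fell, led by CCNA2 and CCNB1 (log2 change -0.57 and -0.53). Of 30 E2F target and replication genes, 16 fell with OSMI-2 (2.38% of all tested genes did), led by MCM7, a subunit of the replicative helicase (log2 change -0.59, adjusted p = 0.0089), and GINS2 (log2 change -0.58, adjusted p = 0.0144). Their median change was -0.41, against -0.02 for all genes; the count was 7 at equal totals, 9 at equal upper quartiles and 26 at equal mitochondrial mRNAs, where 0.608%, 0.794% and 6.05% of all tested genes fell, and 0 rose in limma, edgeR or DESeq2 or at an unadjusted p below 0.05. With AT7519 10 of the 30 rose (26% of all tested genes did), led by TK1 and GINS2 (log2 change 0.48 each), and 8 fell (27.2% of all), led by CLSPN and GINS3 (log2 change -0.96 and -0.94). At equal totals 0 rose and 14 fell, where 10.5% of all tested genes rose and 43.1% fell. At equal mitochondrial mRNAs all 30 fell, where 1.97% of all tested genes rose and 75.6% fell. Against AT7519 alone, 19 of the 30 fell in the combination (12.5% of all tested genes did), led by GINS3 and GMNN (log2 change -0.72 and -0.70), and 0 rose by limma, edgeR, DESeq2 or unadjusted p.

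Set against control, the combination lowered E2F5 and E2F7 (log2 change -1.96 and -1.80), CDKN1B and CDKN2B (-1.24 and -0.68), AMBRA1 and CUL1 (-1.25 and -0.89), CDK7 and WEE1 (-1.28 and -0.68), CCNF and CCNA2 (-1.46 and -0.67), and GINS3 and MCM10 (-1.66 and -1.46), with adjusted p of at most 0.0284. It raised E2F4 (0.58), CDKN2A (0.66), SKP1 and CKS1B (0.58 and 0.35) and CCNH (0.32), with adjusted p of at most 0.0197, and all of these were negative at equal mitochondrial mRNAs. Of all tested genes, 26.3% were called higher and 27.6% lower in this comparison. By list, 1 of 13 RB and E2F genes rose and 8 fell, 1 of 7 CDK inhibitors rose and 3 fell, 2 of 11 turnover genes rose and 6 fell, and 1 of 8 regulators of CDK phosphorylation rose and 6 fell. Of the S and M phase genes 0 of 6 rose, in limma, edgeR and DESeq2 and at an unadjusted p below 0.05, and 3 fell. Of the E2F targets 15 of 30 fell and 0 rose, where edgeR called 1 higher, DESeq2 0 and the unadjusted p 3.

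Set against OSMI-2 alone, the combination raised E2F4 and TFDP1 (log2 change 0.74 and 0.33), CDKN2A (0.60), SKP1 and CKS1B (0.79 and 0.50), CCNH (0.48), CDK1 (0.66) and TK1 (0.60), with adjusted p of at most 0.0066, and all of these were negative at equal mitochondrial mRNAs. It lowered E2F7 and E2F5 (-1.62 and -1.48), CDKN1B and CDKN2B (-1.45 and -1.20), AMBRA1 and FBXO31 (-1.28 and -0.87), CDK7 and WEE1 (-1.15 and -0.63), CCNF and CCNA2 (-1.35 and -0.32), and GINS3 and MCM10 (-1.25 and -0.98), with adjusted p of at most 0.00893. Here 27.5% of all tested genes were called higher and 27.3% lower. By list, 3 of 13 RB and E2F genes rose and 7 fell, 1 of 7 CDK inhibitors rose and 2 fell, 3 of 11 turnover genes rose and 5 fell, 1 of 8 regulators of CDK phosphorylation rose and 3 fell, 1 of 6 S and M phase genes rose and 2 fell, and 10 of 30 E2F targets rose and 8 fell. That count of E2F targets depended on the scale, with 2 rises and 12 falls at equal totals, 0 and 29 at equal mitochondrial mRNAs, 8 and 7 after quantile normalisation, and 15 and 7 at equal upper quartiles.

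The counts by list moved with the scale, and so did those over all tested genes. With AT7519, equal totals gave 1 rise and 8 falls among RB and E2F genes, 0 and 3 among CDK inhibitors, 1 and 7 among regulators of CDK phosphorylation, and 1 and 2 among S and M phase genes. Equal mitochondrial mRNAs gave 0 rises in these 4 lists, with 12, 5, 8 and 5 falls. The 3 falls among regulators of CDK phosphorylation became 1 at equal upper quartiles and 1 after quantile normalisation. On those scales 25.7% and 23.7% of all tested genes fell with AT7519. For the combination against control, equal totals called 13.7% of all tested genes higher and 38% lower. On that scale 0 RB and E2F genes rose and 10 fell, 0 and 5 CDK inhibitors did so, and 1 and 6 turnover genes. The counts were 0 and 7 among regulators of CDK phosphorylation, 0 and 4 among S and M phase genes, and 0 and 24 among E2F targets. Equal mitochondrial mRNAs, with 2.19% higher and 75.2% lower over all genes, gave 0 rises in the 6 lists and 13, 5, 11, 8, 5 and 30 falls. Rises were more numerous in some lists on other scales. At equal upper quartiles 3 RB and E2F genes, 1 S and M phase gene and 4 E2F targets rose, and after quantile normalisation 5 turnover genes did. Quantile normalisation left 0 rises among regulators of CDK phosphorylation. Their 6 falls became 4 and 3 on these 2 scales, and the 15 falls among E2F targets 12 and 18. The 3 falls among CDK inhibitors became 1 at equal upper quartiles. Of all tested genes, 33.4% and 29.4% rose and 23.1% and 24.8% fell. Against OSMI-2, equal totals called 11% of all genes higher and 40.5% lower in the combination. They gave 1 rise and 9 falls among RB and E2F genes, 0 and 4 among CDK inhibitors, and 1 and 7 among turnover genes. There were 0 and 6 among regulators of CDK phosphorylation, and 1 and 3 among S and M phase genes. Equal mitochondrial mRNAs, with 2.17% higher and 69.7% lower, gave 0 rises in these 5 lists and 12, 5, 10, 8 and 4 falls. The combination against AT7519 moved less, as the 19 falls among E2F targets were 13 at equal totals, at equal upper quartiles and after quantile normalisation, and 20 at equal mitochondrial mRNAs. Without the trend limma called 2.58% of all tested genes lower in that comparison. The falls then became 2 among turnover genes, 1 among S and M phase genes, 1 among RB and E2F genes and 1 among CDK inhibitors.

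Several of these pathway calls rested on single libraries. With OSMI-2 the 16 falls among E2F targets became 0 without control replicate 2 or OSMI-2 replicate 2 and 6 without control replicate 1, and limma without the trend called 0. In the same comparison E2F3 and CHEK1 each failed without any one of the 4 libraries compared, as did CCNB1, whereas CDK1, MCM7 and GINS2 failed without control replicate 2 or OSMI-2 replicate 2, and GINS2 also without control replicate 1. With AT7519, CDKN2A failed without control replicate 2 or AT7519 replicate 1, CDKN1A without control replicate 1 or AT7519 replicate 2, CDKN1B without AT7519 replicate 2, CDC25C without either control library or AT7519 replicate 2, and TFDP1 without any one of 6 libraries. The 8 falls among E2F targets with AT7519 became 5 without control replicate 1 or AT7519 replicate 2, and the 3 falls among regulators of CDK phosphorylation became 1 without either control library. In the combination against AT7519 the 19 falls among E2F targets became 10 without combination replicate 2 and 5 in limma without the trend, and the 4 falls among regulators of CDK phosphorylation became 1 without AT7519 replicate 1 or combination replicate 2. The 5 falls among turnover genes became 3 without AT7519 replicate 1, CDK7 failed without any one of 6 libraries and RBL2 without either AT7519 library or combination replicate 2. In the combination against control, CDKN2A failed without control replicate 2, when the 3 falls among CDK inhibitors became 1, CDKN2B and CKS1B without either control library or combination replicate 1, and CCNH without control replicate 1 or combination replicate 1. Against OSMI-2 alone, CDKN2A failed without OSMI-2 replicate 2 or combination replicate 1, and CCNA2 without OSMI-2 replicate 1 or combination replicate 2. Leaving out a library also added calls: the 1 fall among RB and E2F genes with OSMI-2 became 2 without either combination library, their 1 rise in the combination against control became 2 without combination replicate 1, and the 1 rise among S and M phase genes in the combination against OSMI-2 became 2 without either AT7519 library.

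**Figure D5:**
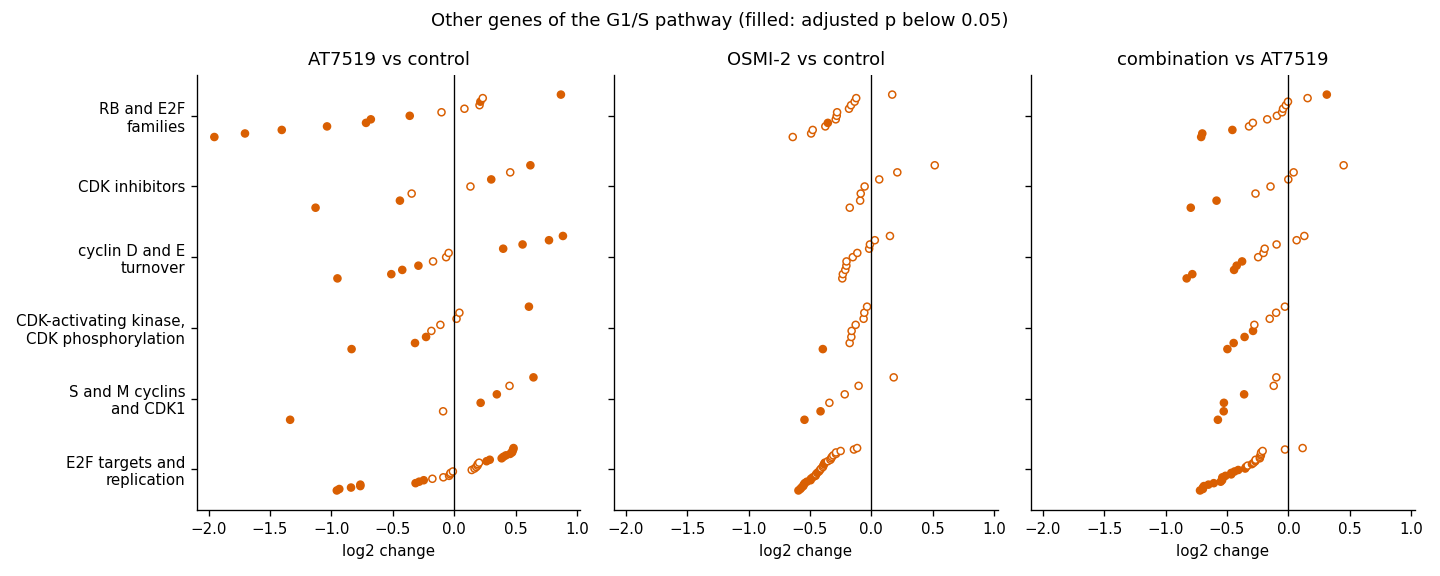
log2 changes (x axis) of the tested genes of 6 pathway lists (rows, each point a gene, sorted within its list) with AT7519 and with OSMI-2 against control and in the combination against AT7519; filled points have an adjusted p below 0.05. With AT7519 the E2F target and replication genes lie on both sides of 0, whereas the filled points of that list are all left of 0 with OSMI-2 and in the combination against AT7519.

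Across the 8 libraries, the genes whose log2 level was most like that of each tested gene were found among the 13036 genes that averaged 50 or more normalised counts, by Pearson r and as a description only, since the libraries share their groups and fall apart by AT7519. For CCND1 they were SORBS2 (r = 0.997), RXRA (0.992) and LRRC37BP1 (0.988), and for CCND3 DHX29 (r = 0.997), DPM1 (0.991) and CCDC43 (0.991). CDK4 was most like GCAT, PAAF1 and C11orf73 (r of 0.997 for each) and CDK6 like C9orf91 (r = 0.983), PTPN21 (0.982) and IPCEF1 (0.978). CCNE1 was most like PPP2R1B (r = 0.979), LYAR (0.979) and METTL13 (0.978), and CCNE2 like KATNAL1 (r = 0.997), METTL12 (0.996) and GABPB1 (0.996). CDK2 was closest to TK1 (r = 0.993), a thymidine kinase and itself one of the listed E2F targets, before EFTUD2 (0.988) and NCAPD3 (0.988). For CDC25A they were MNAT1 (r = 0.992), CUL3 (0.989) and UBB (0.989), of which MNAT1 is a subunit of the CDK-activating kinase and CUL3 is in the list for cyclin turnover.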

How the data were processed

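RNA sequencing libraries of LNCaP cells, 2 in each of 4 groups, were made with a strand-specific TruSeq kit, per the labels' protocols. The authors deposited 1 normalised signal for each gene and library, which comes out as whole reads divided by a size factor. The submitters' processing notes name hg19 and GRCh37 as builds, and STAR, HTSeq and DESeq2 as tools. Their versions, the annotation and the strand setting: not given in the sources used here. Dividing each column by its smallest step gave whole reads for 100% of values (tolerance 0.01). The 28 blank lines were dropped. Replicates differed by more than counting error (chi-square per degree of freedom 18.8 to 29.4).

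Genes with a mean of at least 10 were taken to log2 after adding 1, and fitted in 1 limma model (3.58.1, R 4.3.3) with a variance trend and 4 group means (4 residual and 10.1 prior degrees of freedom). The test was also run on simulated counts, with a fixed spread for all genes and few changed genes. These settings differ from the data, so the run cannot give the error rate here. Two-sided p-values were Benjamini-Hochberg adjusted over the 19393 genes of each of 6 comparisons, and called below 0.05. At equal mitochondrial mRNAs limma gave far smaller p-values for a like ratio of change to SE. There CCND3 in the combination against control, at -1.12 (SE 0.14), had adjusted p = 1.363e-14. On the deposited scale CDK4 with AT7519, at 0.74 (SE 0.096), had adjusted p = 1.878e-05. The p-values of that scale therefore overstate its certainty beside the others. Fold changes are on the log2(value + 1) scale, and ± values are SDs over 2 libraries. Floors and read counts cover counting error only. Genes and lists were chosen with earlier results of these data known. Named genes are all members, up to 2 called rises and 2 called falls for each list and comparison, and the 3 genes most alike to each member; 1 gene that the rule names is not reported here. Alternatives were other scalings, pseudocounts of 0.5 and 5, no filter, no trend, edgeR (4.0.16) and DESeq2 (1.42.0) on the recovered reads, a replicate block, and leaving out each library. Exon lengths and overlaps come from GENCODE 29 by symbol (GRCh38), so no positions of counted genes are given.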

Additional observations from a re-analysis of the deposited data

Results flagged for a closer look

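For the G1 cyclins, their kinases and CDC25A, limma called no difference between the sum of the single changes and the change with both agents. DESeq2 called 1, CCND1 (adjusted p = 0.0273). Among the listed pathway genes, 2 had effects of OSMI-2 that differed with and without AT7519 in the interaction test. This test called 201 of the 19393 tested genes (1.04%), of which 189 were lower (0.975% of all tested genes) and 12 higher (0.0619%). The 2 were 1 of 7 CDK inhibitors and 1 of 11 turnover genes. It called 0 of 13 RB and E2F genes, 0 of 8 regulators of CDK phosphorylation, 0 of 6 S and M phase genes and 0 of 30 E2F targets. CDKN1B, the gene of the CDK inhibitor p27, had an interaction of -1.01 on the log2 scale (SE 0.17, limma adjusted p = 0.0154): it had 3828 and 3027 normalised counts in the combination, 6674 and 5234 with AT7519, 9420.1 and 9173 with OSMI-2, and 7954 and 8103 in control. AMBRA1, which directs D cyclins to degradation, had an interaction of -0.86 (SE 0.16, adjusted p = 0.0195), with 1320.5 and 1138 normalised counts in the combination, 2026 and 2342 with AT7519, 2917 and 3041 with OSMI-2, and 2969 and 2873 in control. Each call was lost in 7 of 19 alternatives, with adjusted p of up to 0.372 for CDKN1B and 0.312 for AMBRA1, and the direction held in all 19.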

How the results depend on the processing

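Of the 8 tested genes, the number called with OSMI-2 against control was 1, and became 7 at equal mitochondrial mRNAs, 0 with no filter, 0 in limma without trend, 2 in edgeR, 5 in DESeq2 and 0 to 3 with 1 library left out. With AT7519 against control it was 8, 5 after quantile normalisation, and 4 to 8 with 1 library left out. The interaction count was 0, 1 in DESeq2 and 0 to 1 with 1 library left out. With AT7519 against control the 8 calls, 3 higher and 5 lower, became 6 at equal totals, 1 higher and 5 lower. At equal mitochondrial mRNAs they became 7, all lower. Of all tested genes, 10.5% rose and 43.1% fell at equal totals, and 1.97% and 75.6% at equal mitochondrial mRNAs. Other shares over all genes moved too. With OSMI-2, no filter called 0.0869% higher and 0.216% lower, and limma without trend called 0 genes. Quantile normalisation called 27.3% higher and 23.7% lower with AT7519, and DESeq2 called 0.309% higher and 2.57% lower in the interaction. Same-numbered libraries deviated together only weakly (r of 0.0207 to 0.123), and the labels do not say that numbers pair them. With the replicate block the OSMI-2 count was 3, CDK4 passed in the combination against AT7519 (adjusted p = 0.0375), and the counts of the other comparisons stayed within 1.5 times. Directions turned as follows, in log2 units, and apart from scales, which shift all genes, the cause was not tested. At equal totals CCND3 was at -0.024 and CDK2 at -0.11 with AT7519, CDK2 at -0.19 in the combination against control, CDK6 at 0.012 against AT7519 and CCND3 at -0.16 against OSMI-2. Among listed genes there, CDKN1A was at -0.041 and TFDP1 at -0.13 with AT7519, and TFDP1 at -0.0045 in the combination against OSMI-2. At equal upper quartiles CDK6 was at 0.027 in the combination against AT7519 and CDK4 at 0.0077 in the interaction, and after quantile normalisation CCND3 was at 0.043 in the combination against control. At equal mitochondrial mRNAs CCND3, CDK2 and CDK4 were at -0.60, -0.69 and -0.18 with AT7519, CDK2 and CDK4 at -0.91 and -0.51 in the combination against control, CCND3, CDK2 and CDK4 at -0.68, -0.49 and -0.15 against OSMI-2, and CDK4 at 0.031 in the interaction. On that scale with AT7519, CDKN2A was at -0.30, CDKN1A -0.61, E2F4 -0.047, TFDP1 -0.70, FBXW7 -0.030, SKP1 -0.14, CCNH -0.31, CDK1 -0.27, CCNB2 -0.57, TK1 -0.43 and GINS2 -0.44. In the combination against control, CDKN2A was at -0.32, E2F4 -0.40, SKP1 -0.40, CKS1B -0.63 and CCNH -0.66. Against OSMI-2, CDKN2A was at -0.26, E2F4 -0.11, TFDP1 -0.52, SKP1 -0.063, CKS1B -0.35, CCNH -0.37, CDK1 -0.19 and TK1 -0.25. With 1 library left out, CCNE1 ranged over -0.17 to 3.96e-05 in the interaction, CDK4 ranged over -0.17 to 0.10 in the interaction, CDK6 ranged over -0.052 to 0.37 in OSMI-2 against control, CDK6 ranged over -0.33 to 0.19 in the combination against AT7519, CDK6 ranged over -0.49 to 0.032 in the interaction.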
